A study of Rattus norvegicus with 12 samples.

Results

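The genes described here are 7 markers of homeostatic microglia, the resident macrophages of the brain in their surveying state, out of 34525 genes measured by RNA sequencing in rat brain. They were chosen by name from a list of 8 (Csf1r, Cx3cr1, P2ry12, Gpr34, Aif1, Tmem119, Sall1 and Itgam), with no cut on measured values. Earlier results of these data were known when the markers were chosen. Itgam, an integrin chain of the complement receptor, had no row under that name and is not analysed here. Each of the other 7 had a single row, and all 7 averaged at least 1 FPKM (fragments scaled by gene length and library total, a level per length) in each of the 4 groups of samples.

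The samples belong to a series on chronic orofacial pain and fall into 4 groups of 3 libraries: thalamus of rats given CFA, thalamus of rats given saline (0.9% sodium chloride), rostral ventral medulla (RVM) of rats given CFA, and RVM of rats given saline. The thalamus relays sensory signals to the cortex, and the RVM is a brainstem region whose descending projections modulate pain. The labels give CFA as letters only, which in rodent pain work commonly mean complete Freund's adjuvant (mycobacterial antigen in oil, used to cause lasting inflammation), and they state no dose, site, time, strain, sex or age. Nothing in them ties libraries to separate rats, so the p-values speak for the spread between libraries only, which may be technical, and the extraction text speaks of retinas, although 7 of 8 thalamic marker genes were higher and 6 of 6 tested hindbrain genes were lower in saline thalamus than in saline RVM.

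Microglia arise from yolk sac progenitors and depend for survival on the receptor tyrosine kinase encoded by Csf1r, whose ligands are Csf1 and Il34. Cx3cr1 is the receptor for the neuronal chemokine Cx3cl1, and P2ry12 is a purinergic receptor with which microglial processes follow nucleotides released by damaged cells. Studies in mice describe a loss of P2ry12, Tmem119 and Sall1 transcripts from individual microglia in several inflammatory and degenerative states, whereas Aif1, which encodes the actin-binding protein IBA1, is widely used as a stain for reactive microglia. Csf1r, Cx3cr1 and Aif1 are also made by macrophages of the brain borders and by monocytes, so their bulk level is not that of microglia alone.

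The libraries held 14944794 to 19243108 reads recovered from the deposited FPKM, and the lowest count behind any value of the 7 genes was 158 reads. At this depth 3 reads, the most that a count of 0 allows, were 0.1559 to 0.2007 CPM (reads scaled by library total), counting error only. In these tissue samples a larger number of microglia and more RNA per cell cannot be told apart. Several libraries stood apart from their group. Choroid plexus and ependyma markers summed to 10274, 2462 and 16.5 FPKM in CFA thalamus libraries 1, 2 and 3, against 6.35 to 29.1 FPKM in saline thalamus. In the RVM, CFA library 2 had the highest sum of haemoglobin and erythroid markers (2252 FPKM, against 859.5 and 863 FPKM in the other CFA libraries and 1066 to 1441 FPKM in saline) and was the lowest CFA library for 6 of the 7 microglia markers.

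The promoters are shown because 2 factors central to microglial identity, PU.1 (Spi1) and the MEF2 family, bind short DNA motifs in myeloid regulatory regions. RefSeq promoters of the GRCr8 assembly, 250 bases before to 50 bases after the gene start, were given for 3 of the 7 genes, Csf1r, Cx3cr1 and Gpr34. Aif1, P2ry12, Sall1 and Tmem119 had no entry. Capitals mark the PU.1 core GAGGAA on either strand (TTCCTC when read on the opposite strand) or the MEF2 pattern (CTA, any 4 bases, TAG), and each sequence is written 5′ to 3′ on the gene's own strand.
Csf1r, chr18:56834129-56834428, plus strand: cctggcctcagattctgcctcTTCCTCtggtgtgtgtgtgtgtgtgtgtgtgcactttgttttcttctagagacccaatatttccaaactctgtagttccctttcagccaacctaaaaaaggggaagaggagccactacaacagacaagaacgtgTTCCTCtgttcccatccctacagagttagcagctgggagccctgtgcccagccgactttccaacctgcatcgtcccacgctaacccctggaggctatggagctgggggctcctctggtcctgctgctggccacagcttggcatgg
Cx3cr1, chr8:128677017-128677316, minus strand: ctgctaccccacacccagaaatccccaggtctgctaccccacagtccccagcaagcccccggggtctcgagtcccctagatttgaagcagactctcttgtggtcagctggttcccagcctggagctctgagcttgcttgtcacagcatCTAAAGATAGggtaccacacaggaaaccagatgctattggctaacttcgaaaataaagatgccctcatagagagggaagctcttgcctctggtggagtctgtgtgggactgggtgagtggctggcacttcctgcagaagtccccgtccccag
Gpr34, chrX:11785787-11786086, minus strand: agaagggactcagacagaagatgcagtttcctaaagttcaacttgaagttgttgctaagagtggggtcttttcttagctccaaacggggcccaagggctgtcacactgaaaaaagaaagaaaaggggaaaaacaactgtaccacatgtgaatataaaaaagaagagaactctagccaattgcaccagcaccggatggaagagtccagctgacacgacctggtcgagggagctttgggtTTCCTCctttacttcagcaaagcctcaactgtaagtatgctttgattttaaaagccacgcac
Csf1r held 2 matches to the PU.1 core, at positions -229 and -95 relative to its start, and Gpr34 held 1 at -12, all on the opposite strand. Cx3cr1 held 1 match to the MEF2 pattern, at -102. The core was present in 27.6% and the MEF2 pattern in 3.84% of 33469 rat promoters of the same length. The longer PU.1 motif GAGGAAGT, which contains the core, was in 2.42% of them and in 0 of the 3.

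In the thalamus, the question was whether these markers differ between CFA and saline. Aif1, Csf1r, Cx3cr1 and P2ry12 were higher in CFA thalamus, by 2.11 to 4.83-fold in mean FPKM, and passed the test. Gpr34 was separated between the groups but did not pass, and Sall1 and Tmem119 overlapped. Of the 7 genes, 4 were called higher and 0 lower at an adjusted p below 0.05 (limma on log2(FPKM + 1), Benjamini-Hochberg over 14722 genes), where 3.84% of all genes tested were called higher and 0.272% lower. All CFA libraries lay above all saline libraries for 5 of the 7, against 12.2% of all genes. The median log2 change was 1.02 over the 7 and -0.08 over all genes tested. Markers of other cells also differed in level. Neuron markers summed to 1275 to 1989 FPKM in CFA thalamus and 1897 to 2791 FPKM in saline thalamus, and thalamic identity genes summed to 163 to 532 FPKM in CFA thalamus and 413 to 865 FPKM in saline thalamus. Gfap, the astrocyte filament gene, was called higher (585 ± 307 FPKM in CFA thalamus, 123.9 ± 39.7 FPKM in saline thalamus; adjusted p 0.0405 by limma). It was the only 1 of 10 astrocyte markers called, and the median log2 change of the 10 was -0.046. Mural and fibroblast markers summed to 514 FPKM in CFA library 1, against 162 and 205 FPKM in CFA libraries 2 and 3 and 139 to 159 FPKM in saline. The part of these differences in the marker levels was not tested.

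Csf1r, the growth factor receptor, was measured at 98.6, 84.6 and 80.9 FPKM in the CFA thalamus libraries, against 29.7, 26.9 and 25.3 FPKM in saline thalamus. Every CFA library was above every saline library. Its log2 change was 1.65 ± 0.11 (SE; 95% interval 1.38 to 1.92), with an adjusted p of 0.000941 by limma. In the deposited table Csf1r is ENSRNOG00000018414 on chromosome 18, 56414488 to 56458300.

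Cx3cr1, the fractalkine receptor, was at 41.9, 39.4 and 34.1 FPKM in CFA thalamus and at 17.5, 15.8 and 15.2 FPKM in saline thalamus. The groups did not overlap, and the log2 change was 1.20 ± 0.11 (SE) with an adjusted p of 0.00275 by limma. The gene is ENSRNOG00000018509 on chromosome 8, 128740756 to 128754514. P2ry12, the nucleotide receptor of surveying processes, was at 23.6, 20.9 and 24.4 FPKM in CFA thalamus, against 12.4, 8.996 and 11.3 FPKM in saline thalamus. All 3 CFA libraries exceeded all 3 saline libraries. The log2 change was 1.02 ± 0.14 (SE), and the adjusted p by limma was 0.0107, which became 0.0535 without saline library 3. P2ry12 (ENSRNOG00000013902, chromosome 2, 149441598 to 149444548) lies within the span of Med12l on the opposite strand. The library kit is not stated to keep strand, so reads of the pair cannot be told apart. Med12l averaged 3.47 FPKM in CFA thalamus and 5.04 FPKM in saline thalamus.

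Aif1, the IBA1 gene, had the largest change of the 7 in the thalamus. It was at 42.1, 33.2 and 34.2 FPKM in CFA libraries, against 8.69, 5.47 and 8.53 FPKM in saline libraries. The lowest CFA library was well above the highest saline library, and the log2 change was 2.15 ± 0.19 (SE; 95% interval 1.69 to 2.60; adjusted p 0.00232 by limma). The gene is ENSRNOG00000000853 on chromosome 20, 5161333 to 5166448.

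Gpr34, which encodes a receptor for lysophosphatidylserine, was at 20.5, 11.96 and 21.8 FPKM in CFA thalamus and at 11.5, 8.78 and 8.46 FPKM in saline thalamus. The ranges were separate but close, because CFA library 2 lay only just above the highest saline library. The log2 change was 0.82 ± 0.24 (SE; 95% interval 0.24 to 1.40), and it did not pass (adjusted p 0.147 by limma). Gpr34 passed without CFA library 2 (log2 change 1.08, adjusted p 0.0319) and when all 12 libraries shared a single model (adjusted p 0.047). Gpr34 (ENSRNOG00000039759, chromosome X, 10023489 to 10031167) lies within the span of Cask on the opposite strand, which averaged 5.9996 FPKM in CFA thalamus and 7.14 FPKM in saline thalamus.

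Tmem119, a transmembrane protein used to tell microglia from blood-derived macrophages, was at 11.7, 20.8 and 14.4 FPKM in CFA thalamus, against 11.97, 14.5 and 13.9 FPKM in saline thalamus. CFA library 1 was the lowest of the 6 and CFA library 2 the highest. The log2 change was 0.17 ± 0.21 (SE), with a 95% interval of -0.33 to 0.66 and an adjusted p of 0.649 by limma, and it was -0.04 without CFA library 2. Sall1, a zinc finger repressor that maintains microglial identity in mice, was at 8.92, 7.49 and 9.92 FPKM in CFA thalamus and at 8.21, 6.39 and 5.55 FPKM in saline thalamus. The groups overlapped, and the log2 change was 0.35 ± 0.16 (SE; 95% interval -0.05 to 0.74; adjusted p 0.271 by limma). Both intervals include 0. Over the scalings and limma-voom, the log2 change of Tmem119 ran from 0.17 to 0.36 and that of Sall1 from 0.31 to 0.57. Tmem119 is ENSRNOG00000000700 on chromosome 12, 48598647 to 48605704, and Sall1 is ENSRNOG00000013907 on chromosome 19, 23389375 to 23405039.

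**Figure D1:**
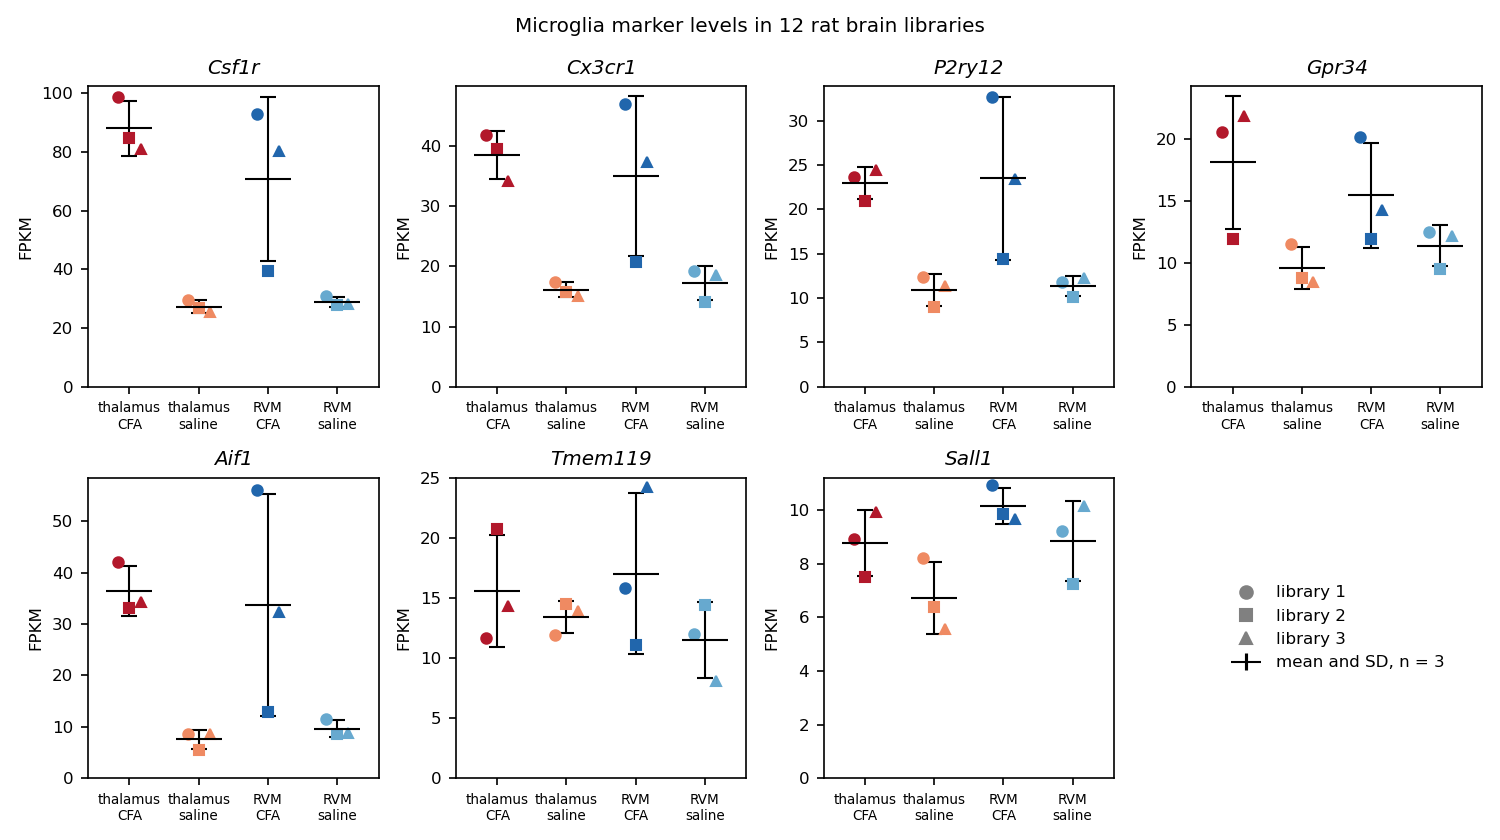
Level of each microglia marker in FPKM (vertical axes from 0) in the 4 groups; symbols are the libraries and black bars the mean and SD (n = 3). Csf1r, Cx3cr1, P2ry12 and Aif1 are separated between CFA and saline thalamus, and RVM CFA library 2 (square) lies near the saline libraries for these 4 genes.

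The thalamic calls depended on which libraries entered. Leaving out 1 library at a time gave 3 to 5 genes called. Without CFA libraries 1 and 2, those with choroid plexus transcripts, 0 of the 7 were called, although the log2 changes of Csf1r, Cx3cr1, Aif1 and P2ry12 were 1.54, 1.04, 2.06 and 1.10, with adjusted p by limma of 0.0533, 0.0972, 0.101 and 0.187. In that fit 1 CFA library stands against 3 saline libraries, the lone library is assumed to vary as the others do, and 0.448% of all genes were called higher.

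In the RVM, the same comparison gave positive changes for all 7 genes, none of which passed. By limma 0 of the 7 and 0 of 14289 genes (0%) were called, and by limma-voom on recovered reads also 0. At an unadjusted p below 0.05 there were 4 of the 7 and 2030 of all genes. All CFA libraries lay above all saline libraries for Csf1r, Cx3cr1, P2ry12 and Aif1, 4 of 7, against 7.27% of all genes. The median log2 change was 0.91 over the 7 and -0.02 over all genes tested.

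Csf1r was at 92.8, 39.3 and 80.3 FPKM in CFA RVM, against 30.8, 27.8 and 28.1 FPKM in saline RVM. Library 2 of the CFA group lay between the other CFA libraries and the saline range, so the groups were separate. The log2 change was 1.18 ± 0.29 (SE; 95% interval 0.48 to 1.88), with an adjusted p of 0.242 by limma.

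Aif1 was at 56.0, 12.9 and 32.2 FPKM in CFA RVM, against 11.5, 8.57 and 8.82 FPKM in saline RVM. CFA library 1 had the highest Aif1 level of all 12 libraries and CFA library 2 barely exceeded the saline range. The log2 change was 1.49 ± 0.47 (SE; 95% interval 0.38 to 2.61), and the adjusted p was 0.264 by limma. Cx3cr1 was at 47.0, 20.7 and 37.3 FPKM in CFA RVM, against 19.3, 14.1 and 18.6 FPKM in saline RVM, with a log2 change of 0.91 ± 0.29 (SE; adjusted p 0.264 by limma). P2ry12 was at 32.7, 14.4 and 23.4 FPKM in CFA RVM, against 11.8, 10.1 and 12.2 FPKM in saline RVM, with a log2 change of 0.92 ± 0.26 (SE; adjusted p 0.254 by limma). For both receptors CFA library 1 was highest and CFA library 2 lowest of the CFA group, and no CFA value fell within the saline range.

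Gpr34 was at 20.2, 11.9 and 14.2 FPKM in CFA RVM, against 12.5, 9.49 and 12.2 FPKM in saline RVM, Tmem119 at 15.9, 11.1 and 24.3 FPKM, against 12.1, 14.4 and 8.10 FPKM, and Sall1 at 10.9, 9.85 and 9.66 FPKM, against 9.21, 7.22 and 10.1 FPKM. All 3 overlapped between the groups. Their log2 changes were 0.39 (95% interval -0.07 to 0.84), 0.50 (-0.21 to 1.20) and 0.19 (-0.10 to 0.48), with adjusted p by limma of 0.416, 0.5002 and 0.543.

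Without RVM CFA library 2, the same 4 genes as in the thalamus were called higher, where 2.78% of all genes were called higher. Their log2 changes were 1.55 for Csf1r, 1.24 for Cx3cr1, 2.04 for Aif1 and 1.22 for P2ry12, with adjusted p by limma of 0.00175, 0.0150, 0.0110 and 0.0139. Gpr34, Tmem119 and Sall1 did not pass in that fit (adjusted p 0.180, 0.209 and 0.514). Library 2 had the highest blood marker sum and the lowest monocyte and neutrophil marker sum of the CFA RVM group. The part of either in its low marker levels was not tested. Oligodendrocyte markers summed to 17604 to 18564 FPKM in CFA RVM and 23665 to 26972 FPKM in saline RVM, with 0 of 10 called. Neuron and astrocyte sums overlapped between CFA and saline RVM. The part of the oligodendrocyte difference in the marker levels was not tested.

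**Figure D2:**
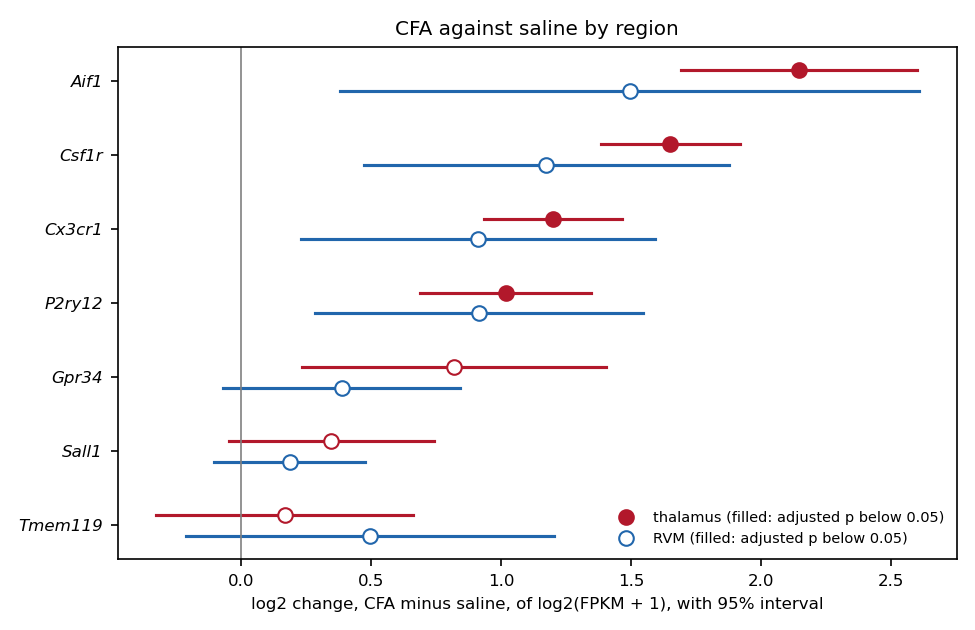
Log2 change of each marker, CFA minus saline, on the log2(FPKM + 1) scale, with 95% intervals, for thalamus and RVM; filled points passed an adjusted p of 0.05. The 4 thalamic changes of Aif1, Csf1r, Cx3cr1 and P2ry12 are filled, and all RVM points are open with wider intervals for Aif1, Csf1r, Cx3cr1 and P2ry12.

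The difference between the CFA effects of the regions did not pass for any of these genes. In a model of all 12 libraries with an interaction of region and treatment, 0 of the 7 and 0 of 13738 genes (0%) were called by limma. Limma-voom also called 0, and 0 of the 7 and 1560 of all genes had an unadjusted p below 0.05. The difference in log2 change, thalamus minus RVM, was 0.65 for Aif1 (95% interval -0.59 to 1.90), 0.48 for Csf1r (-0.29 to 1.25) and 0.29 for Cx3cr1 (-0.46 to 1.04). It was 0.10 for P2ry12 (-0.62 to 0.82), 0.43 for Gpr34 (-0.31 to 1.17), 0.16 for Sall1 (-0.31 to 0.63) and -0.33 for Tmem119 (-1.21 to 0.55). The intervals do not show that the effects are alike, since they allow differences of over 1 log2 unit for Aif1, Csf1r, Cx3cr1, Gpr34 and Tmem119.

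Levels in saline animals addressed whether the regions differ in these markers without treatment. Thalamus and RVM libraries overlapped for all 7 genes, whereas 58.8% of all genes did not overlap, and 0 of the 7 were called by limma, where 45.3% of all genes were called in either direction. Csf1r averaged 27.3 ± 2.19 FPKM in saline thalamus and 28.9 ± 1.64 FPKM in saline RVM, and Cx3cr1 averaged 16.2 ± 1.19 FPKM in saline thalamus and 17.3 ± 2.84 FPKM in saline RVM (SD, n = 3 each). Sall1 had the largest difference in the values as deposited, at 6.72 ± 1.36 FPKM in saline thalamus and 8.86 ± 1.49 FPKM in saline RVM. Its log2 difference was -0.36 (95% interval -0.75 to 0.04, adjusted p 0.125 by limma). Over the scalings and limma-voom, Sall1 ran from -0.45 to -0.19 and Tmem119 from 0.16 to 0.41. With 1 library left out, the Sall1 difference ran from -0.49 to -0.25 and passed in 1 of 6 fits. That fit lacked saline thalamus library 1 (log2 difference -0.49, adjusted p 0.0351 by limma), and 7154 of 14295 genes were called in it. Between CFA thalamus and CFA RVM, 0 of the 7 were called, where 33.0% of all genes were called in either direction, and the groups overlapped for all 7, whereas 51.7% of all genes did not overlap. At an unadjusted p below 0.05, 0 of the 7 passed in both region comparisons, against 7703 of 14396 genes in saline and 6702 of 14787 in CFA. Limma-voom called 0 of the 7 in both, against 6368 and 5179 of all genes.

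The order of the 7 genes by level per length was in part shared by the groups. By mean level Csf1r was the highest and Cx3cr1 came next in every group, with Sall1 the lowest, although the ranges of Csf1r and Cx3cr1 overlapped in CFA RVM. Aif1 was 6th of 7 in both saline groups and 3rd in both CFA groups, where its range overlapped that of Cx3cr1. In CFA RVM the range of Aif1 also overlapped that of P2ry12, so its rank there is not resolved. Tmem119 was 3rd in both saline groups, 6th in CFA thalamus and 5th in CFA RVM. In saline RVM the ranges of neighbours from Cx3cr1 down to Sall1 overlapped, as did those from Tmem119 down to Sall1 in saline thalamus, so these ranks are not resolved. Nor are those of P2ry12, Gpr34 and Tmem119 in the CFA groups, where the ranges of neighbours overlapped.

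Ratios to Csf1r within each library asked whether the markers kept their proportions, on the log2(FPKM + 1) scale, where the added 1 leaves some dependence on the library's scaling. In the thalamus 5 of the 6 markers, all but Aif1, were lower relative to Csf1r in CFA libraries, without overlap. The same held for 93.3% of all genes tested, since Csf1r itself was higher, so the count says nothing particular about the markers. The log2 ratio of Tmem119 to Csf1r was -2.97, -1.98 and -2.41 in CFA thalamus, against -1.24, -0.84 and -0.82 in saline thalamus, a difference of -1.48. The log2 ratio of Sall1 to Csf1r was -3.33, -3.33 and -2.91 in CFA thalamus, against -1.74, -1.92 and -2.01 in saline thalamus, a difference of -1.30. The CFA libraries lay below the saline libraries in both. Gpr34, P2ry12 and Cx3cr1 gave differences of -0.83, -0.63 and -0.45, and Aif1 gave 0.49 with all CFA libraries above saline, as did 0.965% of all genes.

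In the RVM the differences in log2 ratio to Csf1r were -0.99 for Sall1, -0.79 for Gpr34, -0.68 for Tmem119 and -0.26 for P2ry12, again without overlap, as for 89.1% of all genes. For Tmem119 and P2ry12 the groups overlapped with a pseudocount of 0.1 or with none, an alternative chosen after the data were seen. Cx3cr1 (-0.26) and Aif1 (0.32) overlapped, and 0.245% of all genes were higher relative to Csf1r without overlap. Each of the 10 ratios without overlap, of 12 in all, had the smallest p that 3 libraries against 3 allow, 0.10 in an exact two-sided permutation test (0.12 after Benjamini-Hochberg adjustment over the 12), so none could pass 0.05. The comparisons share a denominator and are not independent. With Cx3cr1 as the denominator in place of Csf1r, chosen after the data were seen, 7 of 12 were without overlap. Of these, Tmem119 and Sall1 in the thalamus and Gpr34 and Sall1 in the RVM were lower in CFA libraries. Csf1r and Aif1 in the thalamus and Aif1 in the RVM were higher. The share of all genes was not computed for this denominator, so the count says nothing particular about the markers.

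**Figure D3:**
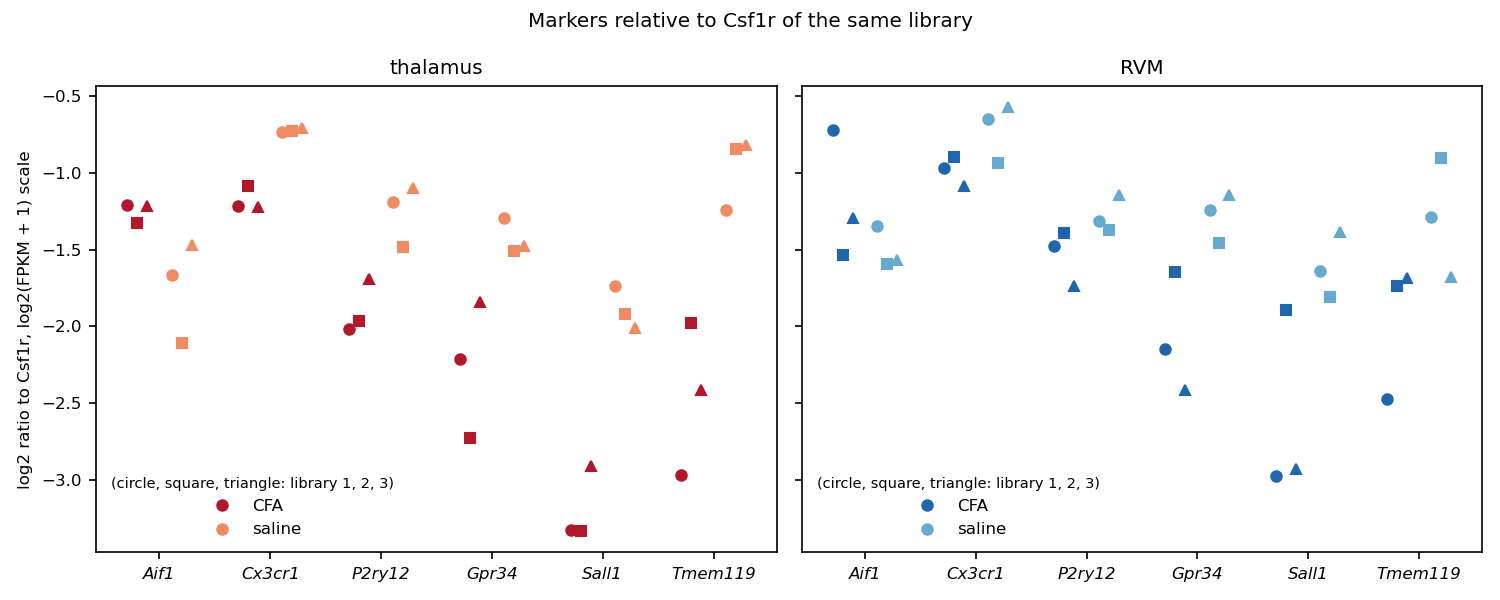
Log2 ratio of each marker to Csf1r of the same library (vertical axis, log2(FPKM + 1) scale) in CFA and saline libraries of thalamus and RVM. In the thalamus, CFA libraries lie below saline libraries for every marker shown except Aif1, with differences of -0.45 to -1.48.

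Across the 12 libraries the 7 genes fell into patterns, described here with no test because the libraries share groups and scaling. Csf1r, Cx3cr1, Aif1 and P2ry12 varied together, with Pearson r of 0.958 to 0.984 among them on the log2(FPKM + 1) scale. Gpr34 had r of 0.831 to 0.873 with these 4, and Sall1 had 0.504 to 0.609. Tmem119 stood apart, with r between -0.153 and 0.510 with the other 6. The mean of the 7 scaled levels was 0.82, 0.60 and 0.88 in CFA thalamus, against -0.56, -0.997 and -1.01 in saline thalamus, and 1.30, -0.22 and 0.94 in CFA RVM, against -0.37, -0.80 and -0.58 in saline RVM. CFA RVM library 2 was the only CFA library below 0. The genes outside the lists whose levels followed this mean most closely, of 12121 candidates, were RT1-Ba, Tmem176a, Bin2, Ly86, Dapp1, Fes, Arhgdib and Cd180, with r of 0.981 to 0.987 over 12 libraries. RT1-Ba encodes an MHC class II chain of a family of close copies, so its share of reads is uncertain.

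Other genes of the pathways were counted from lists. Since a gene can pass the filter on low values through its CFA level alone, counts are given for the list genes that averaged at least 1 FPKM in the saline libraries of the region. Of all 14722 genes tested in the thalamus, with no such saline filter, 3.84% were called higher and 0.272% lower. The share among all genes that pass the saline filter was not computed, here or for the lists below. Of 15 further microglia signature genes with at least 1 FPKM in saline thalamus, 11 were called higher and 0 lower in CFA thalamus, with a median log2 change of 1.25. The complement C1q chains, which tag synapses and debris, had the smallest p-values. C1qb averaged 239 ± 44.4 FPKM in CFA thalamus and 32.6 ± 0.515 FPKM in saline thalamus (SD, n = 3 each), a log2 change of 2.82. C1qc and C1qa changed by 3.14 and 2.66. In the RVM 0 of 17 such genes were called, where 0 of all 14289 genes were, with a median of 0.81.

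Ligands and partners of the markers gave 11 of 19 called higher and 0 lower in the thalamus. C3, the complement protein whose fragment iC3b binds the Itgam receptor, averaged 161 ± 31.6 FPKM in CFA thalamus and 5.04 ± 0.97 FPKM in saline thalamus. Itgb2, the beta chain that pairs with Itgam, averaged 13.5 ± 2.31 FPKM in CFA thalamus and 2.51 ± 0.405 FPKM in saline thalamus, and Tyrobp, the signalling adaptor of TREM2, changed by 2.89 on the log2 scale. The direct ligands, named for that role although their values had been seen, did not move alike. Csf1 averaged 7.02 ± 0.737 FPKM in CFA thalamus and 3.99 ± 0.370 FPKM in saline thalamus (log2 change 0.68, adjusted p 0.0312 by limma). Il34, the other Csf1r ligand, averaged 14.5 ± 0.821 FPKM in CFA thalamus and 13.6 ± 1.85 FPKM in saline thalamus (adjusted p 0.686). Cx3cl1 averaged 105 ± 37.2 FPKM in CFA thalamus and 190.2 ± 42.7 FPKM in saline thalamus, which did not pass (adjusted p 0.177).

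Cx3cl1 differed between the regions in saline rats, at 190.2 ± 42.7 FPKM in thalamus and 21.2 ± 2.08 FPKM in RVM (log2 difference 3.08, adjusted p 0.000122 by limma). Csf1 averaged 3.99 ± 0.370 FPKM in saline thalamus and 8.36 ± 1.31 FPKM in saline RVM (log2 difference -0.90, adjusted p 0.00222).

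Of 12 microglial transcription factors, 6 were called higher and 0 lower in CFA thalamus. Spi1, which encodes PU.1, averaged 15.7 ± 1.91 FPKM in CFA thalamus and 2.90 ± 0.375 FPKM in saline thalamus, and Irf8 averaged 26.6 ± 6.37 FPKM in CFA thalamus and 2.58 ± 0.649 FPKM in saline thalamus. The MEF2 genes Mef2c and Mef2a, named with their values known, were not called and went the other way. Mef2c was at 12.8, 12.3 and 10.1 FPKM in CFA thalamus, below all saline thalamus libraries (27.7, 14.8 and 17.3 FPKM). Mef2a averaged 26.3 ± 4.17 FPKM in CFA thalamus and 40.5 ± 11.1 FPKM in saline thalamus. Both were called higher in saline thalamus than in saline RVM. Mef2c averaged 19.9 FPKM in saline thalamus and 3.16 FPKM in saline RVM. Mef2a averaged 13.6 FPKM in saline RVM. Csf1r, at 27.3 FPKM in saline thalamus and 28.9 FPKM in saline RVM, was not called in that comparison. The cell source of Mef2c and Mef2a was not tested, so their lower levels are not assigned to microglia. Of 12 activation genes at or above 1 FPKM in saline thalamus, 6 were called higher and 0 lower, among them the lysozyme gene Lyz2 (log2 change 4.44). Cd68, a lysosomal protein gene, averaged 27.0 ± 7.24 FPKM in CFA thalamus and 0.971 ± 0.146 FPKM in saline thalamus. Clec7a, a beta-glucan receptor gene, averaged 9.45 ± 2.35 FPKM in CFA thalamus and 0.0852 ± 0.0339 FPKM in saline thalamus. Both passed the filter only through their CFA levels. In the RVM 0 genes of either list were called, where 0 of all 14289 genes were, so these counts do not show a lack of change. The median log2 change in the RVM was 0.75 for the 12 transcription factors. It was 0.22 for 12 activation genes at or above 1 FPKM in saline RVM.

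Markers of other immune cells, some of which also make Csf1r, Cx3cr1 or Aif1, had higher sums in CFA thalamus. Monocyte and neutrophil markers, 17 in the table, summed to 102 to 131 FPKM in CFA thalamus and 11.4 to 15.0 FPKM in saline thalamus. In the RVM they summed to 26.0 FPKM in CFA library 2 and to 86.4 and 112 FPKM in the other CFA libraries, against 14.5 to 16.8 FPKM in saline. Plac8 alone gave 44.1, 56.5 and 35.4 FPKM of the sums in CFA thalamus, and 80.3, 6.83 and 53.5 FPKM in CFA RVM. Only 3 of the 17 markers averaged at least 1 FPKM in saline thalamus, of which Cd44 and Fn1 were called higher. Both were highest in CFA library 1, which also had the highest mural and fibroblast sum. Their cell source was not tested. S100a9, a neutrophil gene, had 18.7, 4.46 and 14.9 FPKM in CFA thalamus, against 0.286, 0.354 and 0.343 FPKM in saline thalamus. The granule genes Mpo, Elane and Ltf reached at most 0.163 FPKM in any library, and Ngp and Camp at most 0.510 and 1.14 FPKM. Cd44, S100a9, Cd4 and these granule genes were named with their values known. Ly6c was listed at 0 in every library, as was Fth1, a ferritin gene that all cells use, so a 0 in this table does not show lack of expression.

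Border macrophage markers, 11 in the table, summed to 27.8 to 56.7 FPKM in CFA thalamus and 10.4 to 12.7 FPKM in saline thalamus. Of 5 that averaged at least 1 FPKM in saline thalamus, Clec10a and Pf4 were called higher. F13a1, Lyve1 and Stab1, named with their values known, were not. F13a1 had 1.90, 2.96 and 2.85 FPKM in CFA thalamus, against 2.38, 5.47 and 4.94 FPKM in saline. Lyve1 had 1.71, 1.03 and 0.820 FPKM, against 1.29, 0.526 and 1.25 FPKM. Stab1 had 3.95, 2.01 and 2.66 FPKM, against 1.05, 1.02 and 1.07 FPKM. Pf4 and Folr2 gave 18.5 and 17.2 FPKM of the sum in CFA library 1. They gave 7.59 and 5.70 FPKM in library 2, and 27.3 and 12.7 FPKM in library 3. In the RVM the border macrophage markers summed to 9.84 to 16.4 FPKM in CFA and 8.69 to 10.7 FPKM in saline. Lymphocyte markers, 13 in the table, summed to 15.2 to 72.4 FPKM in CFA thalamus and 2.04 to 5.85 FPKM in saline thalamus. In the RVM they summed to 50.6, 3.37 and 6.44 FPKM in CFA libraries 1, 2 and 3, and to 2.85 to 4.23 FPKM in saline. Cd4, which rat macrophages also make, gave 54.0, 7.27 and 8.26 FPKM of the sums in CFA thalamus and 47.2 FPKM of that in CFA RVM library 1. For comparison, the 7 microglia markers summed to 218 to 247 FPKM in CFA thalamus and 86.9 to 99.97 FPKM in saline thalamus. The part of monocytes, border macrophages or lymphocytes in the marker levels was not tested.

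**Figure D4:**
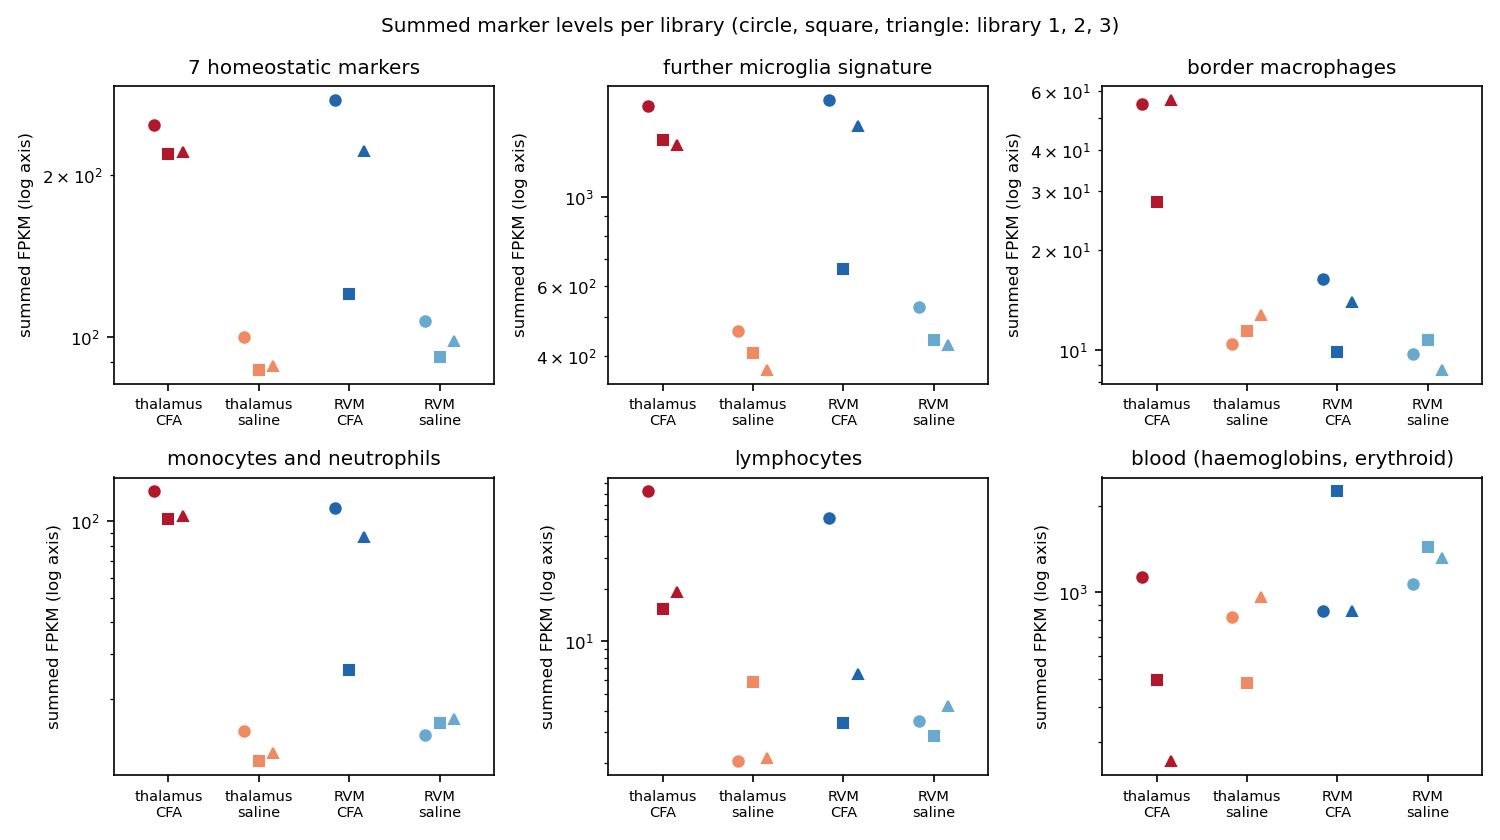
Summed FPKM (log axes) of the 7 microglia markers and of 5 other marker lists in each library of the 4 groups. The microglia sum is 218 to 247 FPKM in CFA thalamus and 86.9 to 99.97 FPKM in saline thalamus, and monocyte and neutrophil, lymphocyte and border macrophage markers are also higher in CFA thalamus.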

How the data were processed

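RNA from 12 libraries was measured, with TruSeq libraries made from TRIzol RNA, per the labels' protocols. The authors deposited FPKM values per gene, with gene length and coordinates, per the file headers. Neither labels nor headers name the aligner, counting tool, build or annotation (not given in the sources used here). FPKM multiplied by gene length was a whole multiple of a single step per library for 100% of values, within a tolerance of 0.01, which gave the reads. The divisor behind the FPKM was 1.109 to 1.168 times those reads in CFA thalamus, 0.9609 to 1.042 in saline thalamus, 0.9547 to 0.9893 in CFA RVM and 0.9335 to 0.9486 in saline RVM, a scaling whose method is not stated.

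The test was limma (version 3.58.1, R 4.3.3, empirical Bayes with trend) on log2(FPKM + 1), for genes averaging at least 1 FPKM over the libraries compared, or in each region for the interaction. Fold changes on this scale understate the change of low genes. Benjamini-Hochberg adjustment ran over all genes tested, and an adjusted p below 0.05 was a call. Alternatives were a pseudocount of 0.1, no filter, a filter at 5 FPKM, equal FPKM totals, median-of-ratios and quantile scaling, limma-voom on recovered reads, a replicate block, a single model and leaving out libraries. Beyond the 7 genes, genes eligible for naming were in each list the 3 called genes with the smallest p, otherwise the 2 tested with the smallest p. One such gene is not reported here, and genes named outside this rule are marked in the text. Markers and lists were chosen with earlier results of these data known. Because Itgam had no row, 12 ratio comparisons were made in place of those planned with it.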

Additional observations from a re-analysis of the deposited data

How the results depend on the processing

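Under every change of pseudocount, filter, scaling, model or test on reads that was run, 4 to 5 of the 7 markers were called in the thalamus and 0 in the other comparisons. Leaving out 1 library at a time gave 3 to 5 called in the thalamus and 0 to 4 in the RVM (4 without CFA library 2). It gave 0 to 1 for saline thalamus against saline RVM (1 without saline thalamus library 1, where 7154 of 14295 genes were called). For the interaction and for CFA thalamus against CFA RVM it gave 0. Without CFA thalamus libraries 1 and 2 the thalamic count was 0. Over all genes the thalamus had 605 calls, but 298 with a filter at 5 FPKM, 1873 when 1 model held all 12 libraries and 66 without CFA libraries 1 and 2, and 309 to 547 when 1 library was left out.

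Of the single values, 18 reversed sign. For saline thalamus against saline RVM, equal FPKM totals gave log2 differences of 0.11 for P2ry12, 0.0899 for Cx3cr1 and 0.10 for Csf1r, and limma-voom gave 0.0144 for P2ry12. For CFA thalamus against CFA RVM, equal totals gave 0.23 for Tmem119 and 0.12 for Sall1, and limma-voom gave 0.13 for Tmem119. The median of all genes under equal totals was 0.14 in saline and 0.29 in CFA for these comparisons, against -0.02 and 0.00 as deposited, and 0.07 against -0.08 for CFA against saline in the thalamus. Equal totals put 4559 genes higher and 2013 lower in saline thalamus than in saline RVM, against 3250 and 3273 as deposited, and 5083 and 1025 in CFA, against 2206 and 2674. Limma-voom put 3781 higher and 2587 lower in saline, and 3736 and 1443 in CFA.

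For CFA against saline in the thalamus, the deposited values gave the lowest log2 change over the scalings and limma-voom for every marker but Sall1. The change ran up to 2.46 for Aif1 and up to 1.25 for P2ry12. With 1 library left out, the change of Tmem119 in the thalamus ran from -0.0449 to 0.34. The interaction ran from -0.20 to 0.37 for P2ry12 and from -0.0392 to 0.53 for Cx3cr1. Saline thalamus against saline RVM ran from -0.15 to 0.0585 for P2ry12. CFA thalamus against CFA RVM ran from -0.26 to 0.31 for P2ry12, from -0.12 to 0.45 for Cx3cr1, from -0.35 to 0.18 for Tmem119 and from -0.22 to 0.80 for Aif1. The cause of these reversals was not tested.

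Whether the replicate numbers pair the libraries was not settled, because differently numbered libraries were not compared. Same-numbered deviations from the group means correlated at 0.364, 0.0634 and 0.267 between CFA and saline thalamus. In the RVM they correlated at -0.028, -0.00505 and -0.0102. Between thalamus and RVM they correlated at 0.106, 0.0203 and -0.0141 in saline and at 0.203, 0.0756 and -0.0371 in CFA. A fit with a replicate block called 4 of the 7 markers in the thalamus and 0 in the RVM, in the interaction and in both region comparisons. Over all genes it made 1338 calls in the thalamus, 755 higher and 583 lower, against 565 and 40 without the block. Ratios with Itgam as the denominator were not run because it had no row. With 3 libraries per group, a single library such as RVM CFA 2 decides whether markers are called, and reads of P2ry12 and Gpr34 are not separable from their host loci by strand.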
